A study of Mus musculus with 17 samples.

Results

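The 33 genes described here are listed astrocyte and Bergmann glia genes, taken by name out of 45147 features counted in mouse brain RNA. The list was drawn up by name and uses no measured value, although earlier results of these data were known when it was made. Libraries were made from brain of mice on a C57BL/6 background, 6 from animals labelled as carrying a HAR1A transgene and 11 from controls. HAR1A is a human gene for a long noncoding RNA, and the comparison asks how the brain transcriptome differs with it. The labels name neither the promoter that drives the transgene nor its line, and neither the part of the brain nor the age or sex. Nothing in them ties the libraries to different animals, and the p-values below therefore speak only of how these libraries vary, which may be technical. Libraries are called by their group and a number given in accession order. The level of HAR1A itself was not analysed here, so the labels were not checked against it.

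Astrocytes take up transmitters, buffer extracellular potassium, move water and bicarbonate, couple to each other through gap junctions and secrete proteins that act on synapses. They differ between brain regions: Bergmann glia, the radial astrocytes of the cerebellar cortex, are known for Gdf10 and Hopx, and angiotensinogen (Agt) is made in the mouse mainly by astrocytes outside the telencephalon. Mfge8 and Chrdl1 are known from astrocytes of the cerebral cortex.

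Each library held between 17067407 and 22642441 assigned counts. All 6 transgene libraries were sequenced on lane 4 of a flow cell, with 3 of the controls (controls 7, 8 and 11). Of the other controls, 6 came from lane 8, 1 from lane 2 and 1 from lane 6 of another flow cell. Genes of brain regions separated the groups. The summed level of 15 Hox genes, known from hindbrain and spinal cord, lay between 0.0464 and 0.634 CPM (the count relative to the scaled size of its library) in transgene libraries and between 16.6 and 366.8 CPM in controls. For 12 transcription factor genes of the telencephalon the sums lay between 570 and 899 CPM in transgene libraries, against 14.0 to 303 CPM in controls. The mean log2 CPM of 12 cerebellar granule and Purkinje cell genes, called the cerebellar score below, was 5.58 in transgene library 3 and at most 3.04 in the other transgene libraries, against 3.10 in control 7 and at least 6.28 in the other controls. Transgene library 3 and control 7 thus stood apart from their groups. Another pair stood apart in choroid plexus and ependymal genes: their summed level was 36.3 and 45.2 CPM in transgene libraries 2 and 6, against 773 to 1918 CPM in the other 4, and 86.3 CPM in control 3 against 433 to 4103 CPM in the other controls. The labels name no region, and a difference in the tissue taken and the presence of the transgene cannot be told apart in this design.

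Promoter sequences are shown for 4 members on which the results turn: S100b and Agt, which were low in transgene libraries, Gdf10, which differed most, and Mfge8, which was high. Each is the 300 bases from 250 before to 50 after the gene's start, from RefSeq on GRCm38.p6, the assembly also called mm10, written 5′ to 3′ on the strand of the gene. Capitals mark the TTGGCA motif of NFI, a factor family active in astrocytes, in S100b and the TATAAA box in Agt.
S100b at chr10:76253586-76253885, plus strand: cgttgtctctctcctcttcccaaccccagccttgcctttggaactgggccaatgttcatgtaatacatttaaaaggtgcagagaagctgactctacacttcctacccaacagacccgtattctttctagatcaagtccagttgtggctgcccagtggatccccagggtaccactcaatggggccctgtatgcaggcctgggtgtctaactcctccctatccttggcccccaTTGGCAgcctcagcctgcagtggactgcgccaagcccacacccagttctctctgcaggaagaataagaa
Agt at chr8:124569657-124569956, minus strand: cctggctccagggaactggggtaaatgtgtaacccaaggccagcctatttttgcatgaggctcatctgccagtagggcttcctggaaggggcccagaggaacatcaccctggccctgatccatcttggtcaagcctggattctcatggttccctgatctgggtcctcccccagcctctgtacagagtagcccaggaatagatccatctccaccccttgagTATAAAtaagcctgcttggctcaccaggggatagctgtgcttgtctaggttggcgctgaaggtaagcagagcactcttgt
Gdf10 at chr14:33923337-33923636, plus strand: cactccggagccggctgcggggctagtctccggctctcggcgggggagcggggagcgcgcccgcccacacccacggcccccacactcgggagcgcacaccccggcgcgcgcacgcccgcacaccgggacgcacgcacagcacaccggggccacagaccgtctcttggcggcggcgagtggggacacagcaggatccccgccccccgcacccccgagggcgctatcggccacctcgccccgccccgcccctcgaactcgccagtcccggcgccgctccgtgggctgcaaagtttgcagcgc
Mfge8 at chr7:79149011-79149310, minus strand: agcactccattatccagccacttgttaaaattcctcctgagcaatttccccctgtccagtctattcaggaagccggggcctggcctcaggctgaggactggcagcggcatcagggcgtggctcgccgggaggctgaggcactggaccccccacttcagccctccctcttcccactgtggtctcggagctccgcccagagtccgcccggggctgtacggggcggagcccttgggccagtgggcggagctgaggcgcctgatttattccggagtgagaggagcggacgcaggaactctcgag
Neither these motifs nor the SOX motif AACAAT was found in the Gdf10 and Mfge8 windows, of which G and C made up 77.3% and 64.3% of the bases. Of the 33 members, 27 had a promoter in the table, with 35 start windows. Searched on both strands, TTGGCA stood in 6 of these windows (17.1%) against 14.1% of all 32851 windows, TATAAA in 4 (11.4%) against 13.6%, and AACAAT in 1 (2.9%) against 10.7%. The 5 genes with the NFI motif were Aldoc, Etnppl, Hepacam, Kcnj16 and S100b. A match describes letters in a window only.

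All 33 members passed the filter on low counts. With edgeR's quasi-likelihood test over the 17 libraries and Benjamini-Hochberg adjustment over 19136 features, 21 members were lower in transgene libraries, 2 were higher and 10 did not pass an adjusted p of 0.05, the threshold for a call throughout. The background was wide: 47.4% of all features passed, 24.4% lower and 23.0% higher. The median log2 fold change of the members was -0.63, against -0.05 over all features tested. At least a 2-fold difference was reached by 13 of the lower members, where 7.86% of all features were lower by that much, and by both higher members, where 8.44% of all features were. In bulk RNA, fewer astrocytes and less RNA per astrocyte cannot be told apart. The mean log2 CPM of the 33 genes lay between 4.94 and 5.30 in transgene libraries and between 5.65 and 5.94 in controls. Without transgene library 3 and control 7 the counts were 21 lower and 3 higher, where 47.2% of all features passed, 22.7% lower and 24.4% higher. Without transgene libraries 2 and 6 they were 20 lower and 2 higher, where 36.4% passed, 16.6% lower and 19.7% higher, and Gja1 at -0.26 (edgeR adjusted p = 0.0711) was the gene that lost its call. With the sequencing lane of each flow cell as a term in the fit they were 23 lower and 2 higher, where 30.8% of all features passed, 15.8% lower and 15.0% higher. As all transgene libraries were on lane 4, the fold changes of that fit rest on the 3 controls of lane 4. It is therefore no separate check from the lane 4 comparison below.

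**Figure D1:**
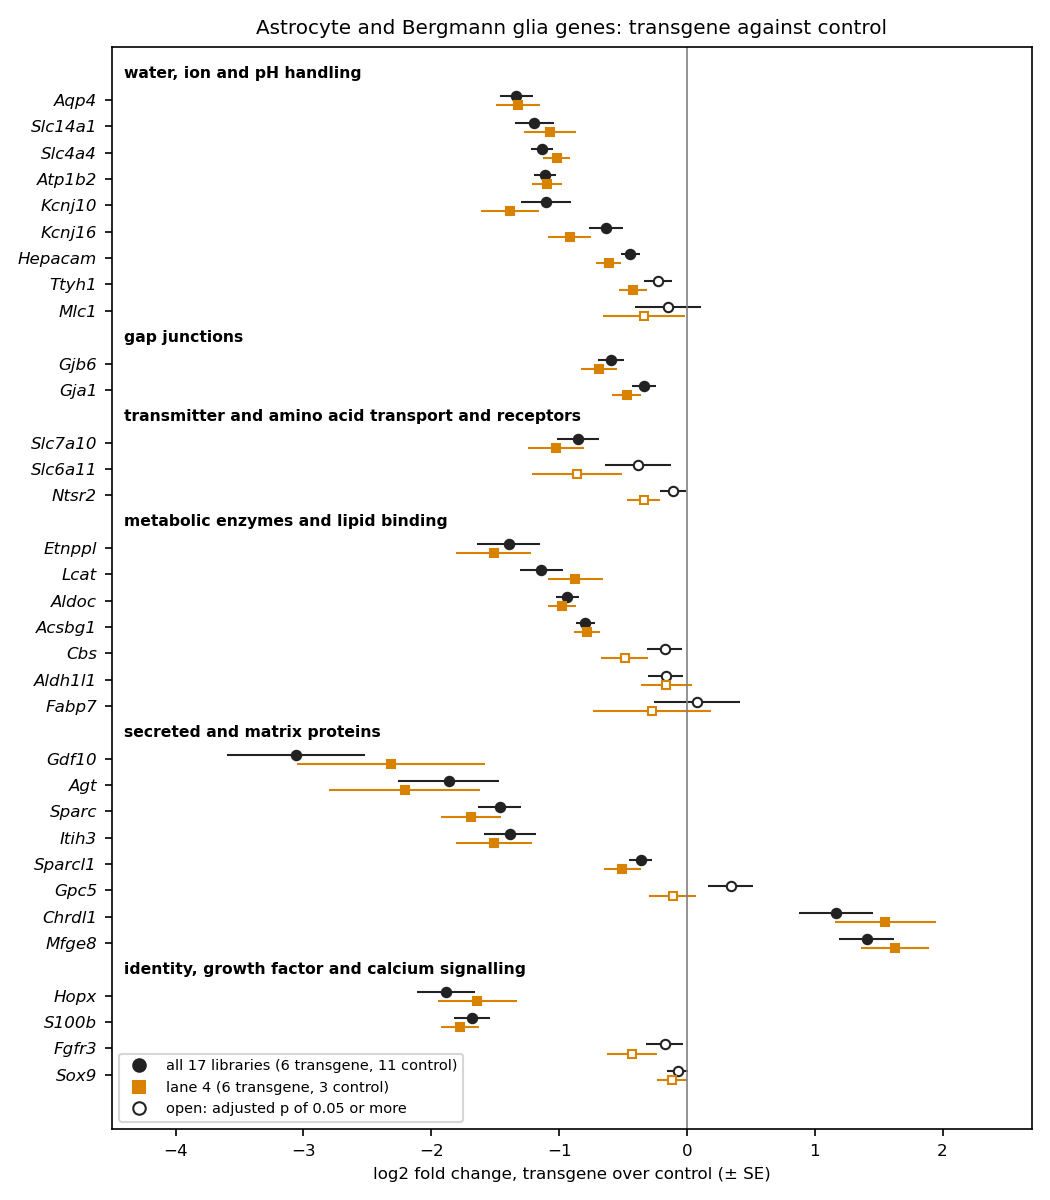
Log2 fold change of transgene over control for each of the 33 members, grouped by role, over all 17 libraries (black circles) and on lane 4 (orange squares), with the standard error of the edgeR fit as bars and open symbols for an adjusted p of 0.05 or more. Over all libraries values run from -3.06 for Gdf10 to 1.41 for Mfge8, with Chrdl1 the other gene that passed on the higher side.

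The genes for handling water, ions and pH were mostly lower, with 7 of 9 passing the test on that side and none on the other. Over all features 24.4% were lower and 23.0% higher. Aqp4, the water channel of astrocyte endfeet, had 124, 165 and 197 CPM as lowest, median and highest of the transgene libraries, against 308, 398 and 531 CPM in controls. No transgene library overlapped a control. Its log2 fold change was -1.33 ± 0.13 (SE; edgeR adjusted p = 3.21e-07). Slc4a4, the electrogenic sodium bicarbonate cotransporter, had 138, 182 and 195 CPM in transgene libraries and 333, 376 and 457 CPM in controls, again apart. It fell by 1.13 ± 0.09 on the log2 scale (edgeR adjusted p = 4.73e-08). Atp1b2, a beta subunit of the sodium-potassium pump that also serves glial adhesion, ran at 553, 598 and 740 CPM in transgene libraries against 1152, 1307 and 1553 CPM in controls. It fell by 1.11 ± 0.09 on the log2 scale (edgeR adjusted p = 4.73e-08), and the groups did not overlap.

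Slc14a1, a urea transporter, stood at 4.96, 6.28 and 8.83 CPM in transgene libraries and 11.01, 13.9 and 19.5 CPM in controls, without overlap and with a log2 fold change of -1.19 ± 0.15 (edgeR adjusted p = 4.88e-06). Kcnj10, the inward rectifier Kir4.1 that buffers potassium, had 221, 291 and 356 CPM in transgene libraries against 308, 627 and 1070 CPM in controls. Only 4 of the 6 transgene libraries lay below every control, and control 3 was the lowest control at 308 CPM. The log2 fold change of Kcnj10 was -1.10 ± 0.20 (edgeR adjusted p = 0.000146). Smaller falls were seen for Kcnj16, which pairs with Kcnj10 in heteromeric channels, at -0.63 ± 0.13, and for Hepacam, an adhesion protein of endfeet, at -0.44 ± 0.08. Their edgeR adjusted p-values were 0.000747 and 0.000107. Ttyh1, a tweety family membrane protein, at -0.22 (edgeR adjusted p = 0.102), and Mlc1, a membrane partner of Hepacam, at -0.15 (edgeR adjusted p = 0.668) did not pass. Mlc1 had only 307 counts over all libraries.

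Both gap junction genes were lower, where 24.4% of all features were. Gjb6, which codes for connexin 30, fell by 0.59 ± 0.10 on the log2 scale (edgeR adjusted p = 9.56e-05), with transgene libraries at 92.0 to 120 CPM and controls at 131 to 209 CPM. With the cerebellar score as a covariate it was at -0.44 and did not pass (edgeR adjusted p = 0.0574). Gja1, connexin 43, fell by 0.33 ± 0.09 (edgeR adjusted p = 0.00693), and its transgene libraries at 29.0 to 38.6 CPM overlapped the controls at 33.7 to 50.7 CPM.

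Of the 3 genes for transmitter and amino acid transport and receptors, 1 passed, on the lower side, near the share of 24.4% of all features. Slc7a10, the Asc-1 transporter of small neutral amino acids, had 29.6, 38.4 and 50.1 CPM in transgene libraries and 39.8, 70.9 and 92.2 CPM in controls, with a log2 fold change of -0.85 ± 0.16 (edgeR adjusted p = 0.000316). Slc6a11, the GABA transporter GAT-3, spread widely in both groups, at 255 to 782 CPM in transgene libraries and 337 to 1246 CPM in controls, and its log2 fold change of -0.38 ± 0.26 did not pass (edgeR adjusted p = 0.233). Ntsr2, a neurotensin receptor, was at -0.11 ± 0.10 (edgeR adjusted p = 0.402).

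Among 7 metabolic genes, 4 were lower and none higher, where 24.4% of all features were lower and 23.0% higher. Etnppl, which breaks down phosphoethanolamine, had 23.9, 40.9 and 64.1 CPM in transgene libraries against 62.9, 94.8 and 167 CPM in controls. Only transgene library 3 reached the control range, and the log2 fold change was -1.40 ± 0.24 (edgeR adjusted p = 0.000126). Lcat, which esterifies cholesterol, had 19.8, 25.4 and 29.8 CPM in transgene libraries and 26.1, 56.5 and 73.5 CPM in controls, where the lowest was control 7. Its log2 fold change was -1.14 ± 0.17 (edgeR adjusted p = 2.6e-05), and with the cerebellar score as a covariate it was -0.22 (adjusted p = 0.469). Aldoc, an aldolase isoform of astrocytes and of Purkinje cells, fell by 0.93 ± 0.09 (edgeR adjusted p = 2.89e-07), and Acsbg1, an acyl-CoA synthetase, by 0.79 ± 0.07 (edgeR adjusted p = 2.41e-07), both without overlap. Cbs and Aldh1l1, of sulfur amino acid and folate metabolism, were both at -0.17, and the fatty acid binding protein gene Fabp7 was at 0.08 ± 0.33, none of them passing (edgeR adjusted p = 0.323, 0.345 and 0.864). Fabp7 ranged from 7.71 CPM in transgene library 3 to 35.4 CPM in transgene library 5, and from 8.27 CPM in control 3 to 43.1 CPM in control 11, a wide spread within each group.

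Secreted and matrix proteins held the widest span, with 5 of 8 genes lower and 2 higher. The shares of all features were 24.4% and 23.0%, so the higher count was near the background. Gdf10, a secreted relative of the bone morphogenetic proteins, had 18.7, 19.7 and 59.0 CPM in transgene libraries, against 5.81, 243 and 352 CPM in controls. Transgene library 3 alone made the 59.0 CPM, the other 5 lying between 18.7 and 20.2 CPM. Control 7 alone made the 5.81 CPM, below every transgene library, while the next lowest control, control 11, had 121 CPM. The log2 fold change was -3.06 ± 0.54 (edgeR adjusted p = 0.000139), 8.32-fold lower, and -3.59 (adjusted p = 6.47e-09) without these 2 libraries. With the cerebellar score as a covariate it was 0.91 (adjusted p = 0.255), so that the call ended and the sign turned.

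Agt, the precursor of angiotensin peptides, had 7.98, 33.1 and 101 CPM in transgene libraries and 84.9, 141 and 208 CPM in controls. Its transgene libraries varied 12.7-fold among themselves and its controls 2.45-fold. All transgene libraries but transgene library 1 lay below every control. Lowest were libraries 6 and 2, at 7.98 and 11.5 CPM, the pair low in choroid plexus genes, while the other 4 lay between 30.5 and 101 CPM. The log2 fold change was -1.86 ± 0.40 (edgeR adjusted p = 0.000761), and -1.38 (edgeR adjusted p = 0.00119) without that pair. Unlike Gdf10, Agt was highest in control 7 among the controls. Sparc, a collagen-binding matricellular protein that is also made by endothelial cells and microglia, had 3.51, 6.39 and 8.99 CPM in transgene libraries against 13.8, 17.7 and 24.9 CPM in controls, without overlap. It fell by 1.47 ± 0.17 on the log2 scale (edgeR adjusted p = 1.36e-06). Its relative Sparcl1 (hevin), which promotes excitatory synapses, fell by only 0.36 ± 0.09 (edgeR adjusted p = 0.0027). Itih3, a heavy chain of the inter-alpha-trypsin inhibitors, had 13.2, 24.2 and 43.4 CPM in transgene libraries and 55.8, 63.7 and 97.1 CPM in controls, also apart, with a log2 fold change of -1.38 ± 0.20 (edgeR adjusted p = 1.98e-05).

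The 2 members that rose were both in this group of secreted proteins. Mfge8, a bridging protein that binds phosphatidylserine on dying cells, had 2.07, 2.91 and 3.90 CPM in transgene libraries against 0.613, 0.950 and 1.90 CPM in controls. Each of the 6 transgene libraries lay above each of the 11 controls. The log2 fold change was 1.41 ± 0.21 (edgeR adjusted p = 3.28e-05), a 2.65-fold rise. Chrdl1, a secreted antagonist of bone morphogenetic proteins that promotes synapse maturation, had 3.14, 4.81 and 7.80 CPM in transgene libraries and 0.837, 2.18 and 5.41 CPM in controls. Control 3 gave the 5.41 CPM and only 2 transgene libraries exceeded it. Its log2 fold change was 1.17 ± 0.29 (edgeR adjusted p = 0.00254), and with the cerebellar score as a covariate 1.54 (adjusted p = 0.112). Gpc5, a glypican of the cell surface, was at 15.7, 18.9 and 21.5 CPM in transgene libraries and 7.96, 14.1 and 26.2 CPM in controls, with a log2 fold change of 0.34 ± 0.18 that did not pass (edgeR adjusted p = 0.12). Control 7 had the highest Gpc5 of all libraries, and without control 7 the value was 0.48 (edgeR adjusted p = 0.00729), past the threshold.

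Among the identity and signalling genes 2 of 4 were lower, where 24.4% of all features were. Hopx, a small homeodomain protein without DNA binding of its own, had 1.61, 2.23 and 4.22 CPM in transgene libraries and 5.35, 10.1 and 14.1 CPM in controls, without overlap. Its log2 fold change was -1.88 ± 0.23 (edgeR adjusted p = 2.93e-06), and -0.91 (adjusted p = 0.0109) with the cerebellar score as a covariate. The highest transgene library for Hopx was library 3 and the lowest control was control 7, the same libraries as for Gdf10. S100b, a calcium-binding protein that some oligodendrocytes also make, had 131, 156 and 183 CPM in transgene libraries and 342, 482 and 644 CPM in controls. The groups did not overlap, and the log2 fold change was -1.68 ± 0.14 (edgeR adjusted p = 1.1e-07), which puts transgene libraries at 31.2% of the control level. Sox9, the transcription factor of astrocyte identity, was nearly level at 59.3, 69.2 and 84.4 CPM in transgene libraries and 61.6, 76.0 and 82.2 CPM in controls. Its log2 fold change was -0.07 ± 0.08 (edgeR adjusted p = 0.49). The growth factor receptor gene Fgfr3 was at -0.17 ± 0.14 (edgeR adjusted p = 0.341).

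**Figure D2:**
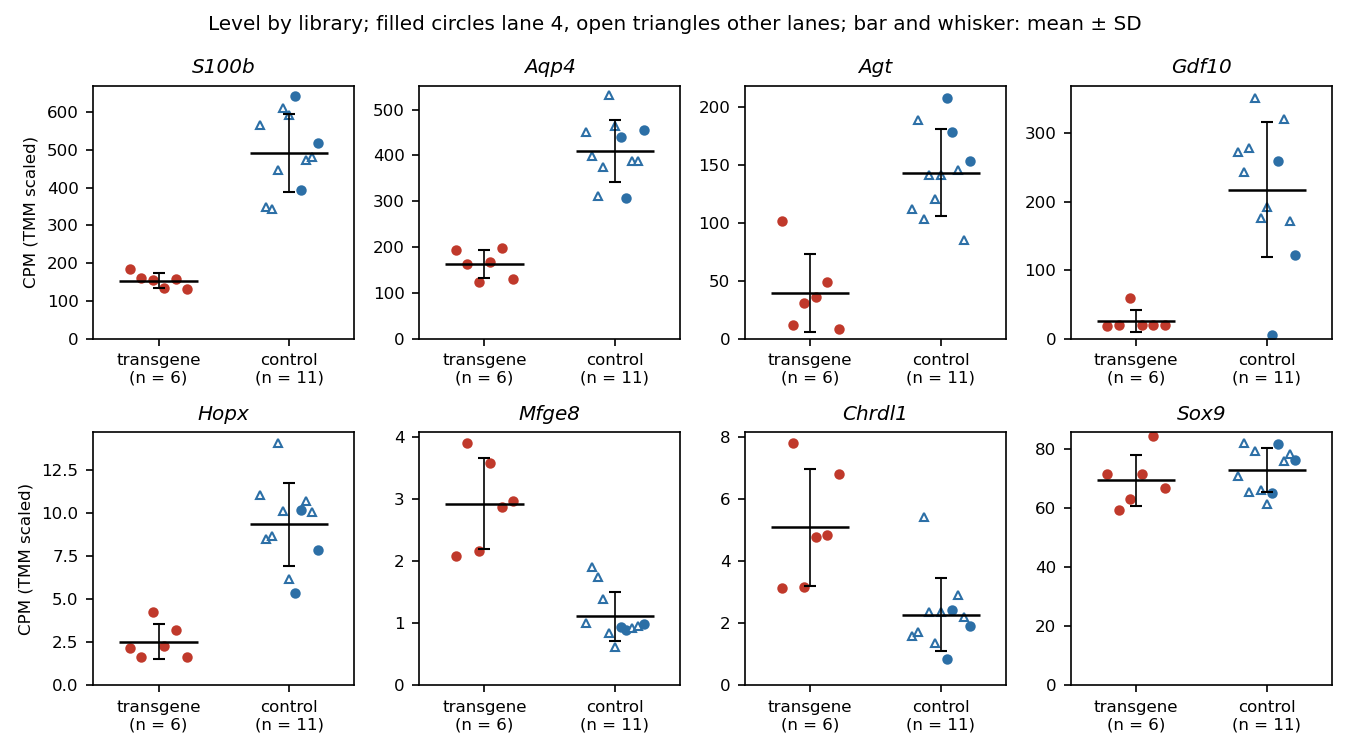
Level of selected members in every library in CPM on axes that start at 0, transgene left and control right, with filled circles for lane 4, open triangles for other lanes and bars for the mean ± SD. S100b and Hopx do not overlap between groups and Mfge8 is higher in every transgene library, while for Gdf10 transgene library 3 and control 7 leave their groups.

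Over all libraries the groups did not overlap for 12 members lower in transgene libraries and 1 higher, where 5.40% and 9.46% of all features did the same. Levels can be compared between genes only per length, and only for the 13 members counted in a single transcript row. On the scale of CPM per kilobase, Sparcl1 was the most abundant, with 1156 in transgene libraries and 1486 in controls, and Sox9 the least abundant in controls, with 16.8 in transgene libraries and 17.7 in controls. Gdf10 averaged 5.02 CPM per kilobase in transgene libraries and 41.8 in controls, so that it lay below Sox9 in transgene libraries and above it in controls. Agt averaged 20.8 in transgene libraries and 75.7 in controls on the same scale, and S100b 103 in transgene libraries and 331 in controls.

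**Figure D3:**
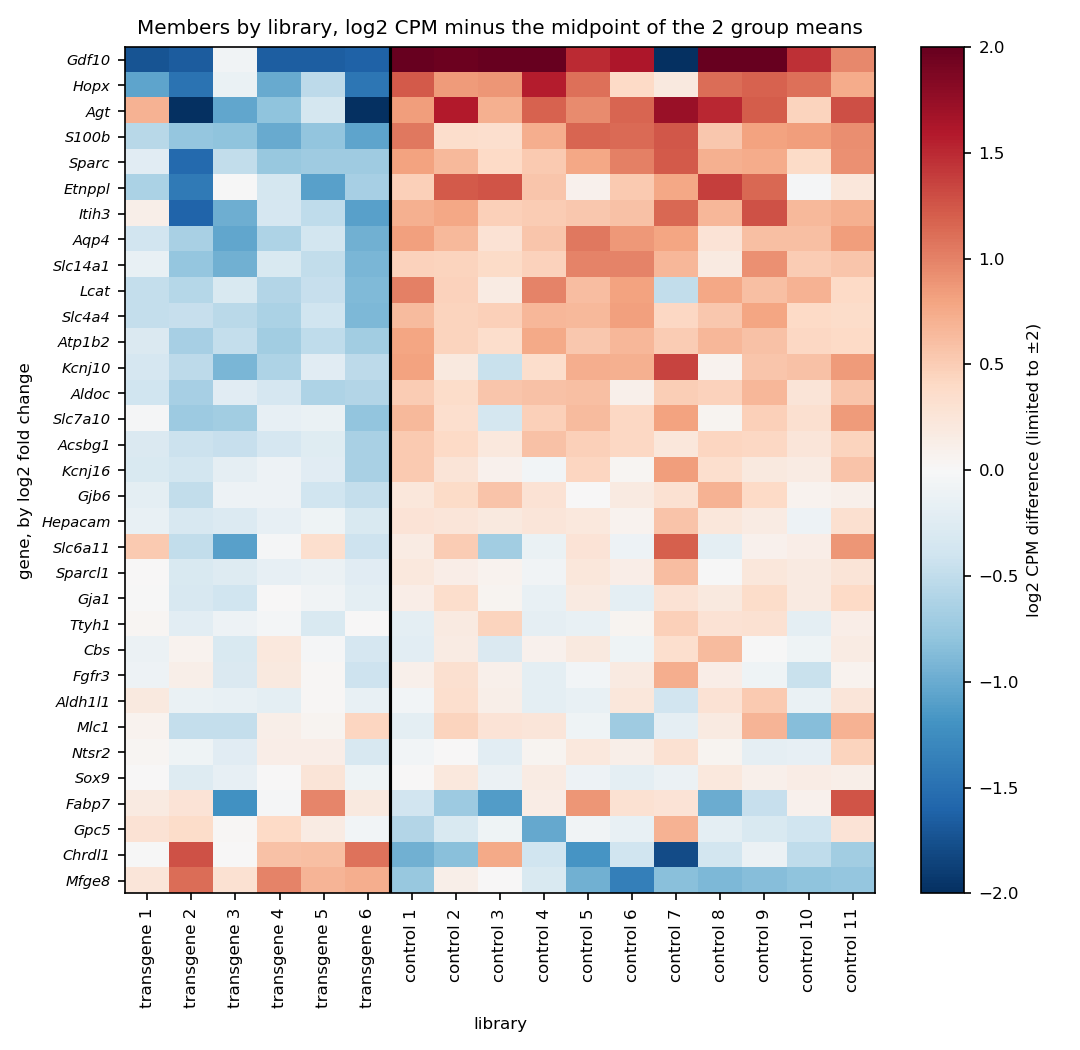
Log2 CPM of each of the 33 members in each library, transgene libraries left, as the difference from the midpoint of that gene's group means, with colours limited to 2 units either way and genes ordered by log2 fold change from Gdf10 at the top to Mfge8 at the bottom. In the row of Gdf10, control 7 with 5.81 CPM departs from the other controls, which have at least 121 CPM.

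Libraries on lane 4 allow the comparison without a difference in lane, with 6 transgene libraries against 3 controls. Among these are controls 7 and 11, which had the lowest cerebellar scores of all controls, at 3.10 and 6.28. They also had the highest mean log2 CPM of the Hox genes, at 3.81 and 3.92. The controls of lane 4 are thus not typical of all controls in these genes. Over the lane 4 libraries, 22 members were lower and 2 higher, where 25.6% of all 19261 features tested passed, 2319 of them lower and 2617 higher (13.6% of all). The 21 lower and the 2 higher members of the whole comparison were among these, and Ttyh1 was added at -0.42 ± 0.11 (edgeR adjusted p = 0.0171). A difference of at least 2-fold was reached by 13 lower and 2 higher members, where 4.82% and 7.41% of all features reached it. The median log2 fold change of the members was -0.86, against -0.04 over all features. S100b was at -1.78 ± 0.15 (edgeR adjusted p = 5.65e-05), Agt at -2.21 ± 0.59 (edgeR adjusted p = 0.0198), Chrdl1 at 1.55 ± 0.39 (edgeR adjusted p = 0.0155) and Mfge8 at 1.63 ± 0.27 (edgeR adjusted p = 0.0016). Groups did not overlap for 19 lower and 2 higher members, where 11.2% and 14.1% of all features did so. Gdf10, at -2.32 ± 0.74 (edgeR adjusted p = 0.0405), rested on few libraries: it was -1.28 without control 8 (adjusted p = 0.252) and -1.28 by limma-voom (adjusted p = 0.371), and it also missed the threshold without control 11 or without any of transgene libraries 1, 2, 4, 5 and 6. Leaving out 1 library also ended the calls of Sparcl1 (control 7 or 11, transgene library 2 or 3), Ttyh1 (control 7), Lcat (control 8) and Gja1 (control 11). Without transgene libraries 2 and 6, Gdf10, Sparcl1, Lcat, Gja1 and Chrdl1, the last with an edgeR adjusted p of 0.0529, did not pass. Without control 7 and transgene library 3, 19 members were lower and 2 higher, where 18.5% of all features passed, 8.46% lower and 9.99% higher, and Agt at -2.03 (adjusted p = 0.0824) no longer passed.

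Among controls alone, 6 libraries of lane 8 were set against the 3 of lane 4. By edgeR no member passed, where 0.00% of all features passed. At an unadjusted p under 0.05 there were 4 of the 33 members, where 7.96% of all features reached it. A p that misses the threshold does not show that the lanes gave equal levels.

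To see which members departed from the rest, the libraries were scaled so that the mean log2 CPM of the 33 genes was equal in all of them, and the test was repeated with this scaling taken as known. On that scale 13 members were lower than the member mean, 14 higher and 6 not distinguishable from it. As the members set the scale, they had to lie on both sides of their mean, so the balance of these counts is no result. The background is set by the scale itself, with 74.8% of all features passing, 5.28% lower and 69.5% higher, and a median log2 fold change of 0.66 over all features. With so many features passing, the adjustment of p is mild near the threshold. Relative to the member mean Gdf10 was at -2.32 ± 0.51 (edgeR adjusted p = 0.00039), Agt at -1.24 ± 0.34 (edgeR adjusted p = 0.00255), Hopx at -1.19 ± 0.22 (edgeR adjusted p = 7.23e-05) and S100b at -0.98 ± 0.14 (edgeR adjusted p = 3.48e-06). With the cerebellar score as a covariate Gdf10 turned to the other side of the member mean, at 1.65 (edgeR adjusted p = 0.0211), still past the threshold. Without transgene libraries 2 and 6 Agt was at -0.81 (edgeR adjusted p = 0.00828). On the other side Mfge8 was at 2.12 ± 0.23 (edgeR adjusted p = 9.69e-08), Chrdl1 at 1.90 ± 0.31 (edgeR adjusted p = 1.37e-05) and Gpc5 at 1.05 ± 0.17 (edgeR adjusted p = 1.83e-05). Sox9, which differed little in CPM, was above the member mean by 0.63 ± 0.08 (edgeR adjusted p = 1.06e-06). The 33 genes therefore did not move by a common factor on this scale. The number above the mean depended on the setting, from 5 with the cerebellar score as a covariate to 18 with libraries scaled by the members' median.

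Controls differed among themselves in the cerebellar score, and the members were set against it over the 11 controls. Gdf10 followed the score most closely, with Pearson's r = 0.99 (permutation p adjusted over 19136 features = 0.00225) and Spearman's rho = 0.93 (adjusted permutation p = 0.0284). Without controls 7 and 11, the farthest from the median score, r was 0.87. Gpc5 ran the other way, with r = -0.82 (adjusted permutation p = 0.00901), rho = -0.85 (adjusted permutation p = 0.0618) and r = -0.68 without those controls. Hopx had r = 0.74 (adjusted permutation p = 0.0572), rho = 0.86 (adjusted permutation p = 0.0613) and r = 0.64 without them. Sparcl1 and Slc6a11 passed with r = -0.88 (adjusted permutation p = 0.0317) and r = -0.77 (adjusted permutation p = 0.0388), with rho of -0.60 and -0.64, but r was -0.42 and -0.20 without the 2 controls, so these relations rest on them. In all, 4 of the 33 members passed by Pearson's r and 1 by Spearman's rho, where 10.3% and 1.59% of all features passed, so the members' shares were near the background. At an unadjusted p under 0.05 the counts were 11 and 5 members, against 30.5% and 17.6% of all features. S100b (r = -0.48), Agt (r = -0.49), Aqp4 (r = -0.29) and Mfge8 (r = 0.16) did not pass. Relations of the members to the Hox and telencephalic genes were not tested. Controls 8 and 2 had the lowest mean log2 CPM of Hox genes, at -0.29 and 0.15, and controls 11 and 7 the highest. S100b was at 392.5 and 347 CPM in the former and 517 and 643.5 CPM in the latter. Aqp4 was at 307.5 and 398 CPM against 456 and 440 CPM. When the score entered the comparison of transgene with control as a covariate, 20 members were lower and 1 higher, where 25.1% of all features passed, 13.1% lower and 2302 features higher. S100b was then at -1.92 (edgeR adjusted p = 1.21e-05), Agt at -2.08 (edgeR adjusted p = 0.0134), Aqp4 at -1.57 (edgeR adjusted p = 8.1e-05) and Mfge8 at 1.27 (edgeR adjusted p = 0.0421). Gdf10, Lcat and Chrdl1 lost their calls with the values given above, and Gjb6 at -0.44 (edgeR adjusted p = 0.0574), while Slc6a11 at -1.43 (edgeR adjusted p = 0.00469) and Fgfr3 at -0.69 (edgeR adjusted p = 0.0163) gained one. The score itself differs between the groups, with the groups overlapping only through transgene library 3 and control 7.

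**Figure D4:**
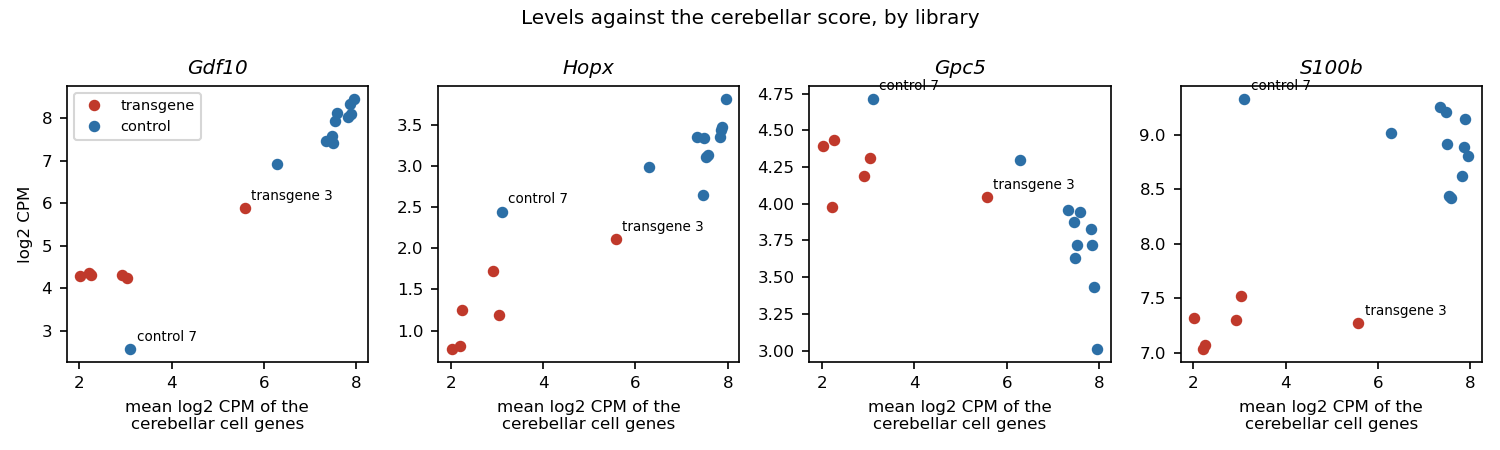
Level of Gdf10, Hopx, Gpc5 and S100b in log2 CPM against the cerebellar score, the mean log2 CPM of 12 cerebellar granule and Purkinje cell genes, with 1 point per library. Gdf10 follows the score among the controls (r = 0.99), with transgene library 3 and control 7 lying between the other transgene libraries and the other controls on the score axis, while S100b is lower in every transgene library than in every control.

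Of the 33 members 20 had several deposited transcript rows, and the files hold reads on several features in a closing row of their own, not in the transcripts' rows. The 13 single-row members held 11 lower and no higher genes, with a median log2 fold change of -1.10. The 20 others held 10 lower and 2 higher genes, with a median of -0.28. In several members, those that rose and those that fell, few bases of the best-counted row belonged to no other row: 118 in Mfge8 and 1203 in Chrdl1, against 111 in Kcnj16, 180 in Sparc, 189 in Gja1 and 0 in Hopx (128 counting rows of Hopx only). Among members that did not pass, Fgfr3 had 3 such bases, Mlc1 18 and Cbs 59. The values of all these members rest on a part of the transcript. For Hopx, 2 rows fell, at -1.76 ± 0.27 and -2.39 ± 0.33 (edgeR adjusted p = 2.94e-05 and 1.06e-05), and another was at -0.84 ± 0.36 (edgeR adjusted p = 0.0633). Over rows rather than genes, 23 of 38 tested member rows were lower and 2 higher, where 44.8% of all rows passed, 21.1% lower and 23.7% higher. The strand setting is not given in the sources used here, and 11 members overlap another gene. In Hopx at chr5:77086988-77115121, which overlaps Hopxos, and in Ttyh1, Slc7a10 and Aldh1l1 the best-counted row shares exon bases with rows of the neighbour. In S100b at chr10:76253853-76261159, which overlaps Dip2a on the other strand, all 1484 exon bases belonged to no other row.

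Astrocyte genes outside the 33 passed the test in both directions. Of 41 listed genes 39 were tested, 17 were lower and 8 higher, where 24.4% of all features were lower and 23.0% higher. The share of higher genes was thus near the background. The median log2 fold change of the listed genes was -0.18. Paqr6, a progestin receptor family gene, at -1.82 ± 0.18 (edgeR adjusted p = 3.35e-07), and Grin2c, an NMDA receptor subunit also made by cerebellar granule cells, at -1.81 ± 0.30 (edgeR adjusted p = 7.72e-05), fell furthest. The main glutamate transporter gene Slc1a2 (GLT-1), more abundant in forebrain, rose by 0.95 ± 0.12 (edgeR adjusted p = 3.6e-06). Slc1a3 (GLAST), abundant in Bergmann glia, was at -0.37 ± 0.21 and did not pass (edgeR adjusted p = 0.15). Control 7 at 347 CPM and control 11 at 763 CPM lay below the transgene libraries at 781 to 971 CPM. The other controls, at 986 to 1506 CPM, lay above every transgene library. Glul, glutamine synthetase, was at 0.08 ± 0.09 (edgeR adjusted p = 0.511). Gfap, the intermediate filament gene, fell by 0.60 ± 0.24 (edgeR adjusted p = 0.0426). Its highest controls were control 7 at 872 CPM and control 11 at 554 CPM. The other controls, at 234 to 393 CPM, overlapped the transgene libraries at 196 to 286 CPM. Whether the call of Gfap holds without controls 7 and 11 was not tested. Among 15 tested genes of reactive astrocytes 4 were lower, near the share of all features, and 2 higher. The lowest of these was Vim, vimentin, at -1.06 ± 0.14 (edgeR adjusted p = 5.62e-06).

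Regional astrocyte genes outside the list were also measured. Of 9 Bergmann glia genes 5 were lower and 2 higher, where 24.4% of all features were lower and 23.0% higher. The higher share was thus near the background. Among them were A2m at -2.86 ± 0.29 (edgeR adjusted p = 5.59e-07) and Npy1r at 1.72 ± 0.26 (edgeR adjusted p = 3.53e-05). Among controls Npy1r was highest in control 3, at 7.92 CPM. Control 3 also had the highest mean log2 CPM of the telencephalic transcription factor genes, at 3.75. Which cells gave these reads was not tested. Of 5 genes known from telencephalic astrocytes 4 were higher and none lower, among them the transcription factor gene Emx2 at 3.08 ± 0.73 (edgeR adjusted p = 0.00183), also used by neurons and progenitors. Markers of other cell types were counted as well, over all libraries against the same background of 24.4% lower and 23.0% higher. Of 10 oligodendrocyte genes 7 were lower and 1 higher, with sums of 1273 to 2803 CPM in transgene libraries and 1508 to 6113 CPM in controls. Of 10 neuron genes 3 were lower and 3 higher, near the background, with sums of 5040 to 6719 CPM in transgene libraries and 5560 to 10213 CPM in controls. Of 6 tested microglia genes 4 were higher, with sums of 436 to 561 CPM in transgene libraries and 283 to 638 CPM in controls, which overlap. On lane 4 1 of 7 microglia genes was higher, near the background. Oligodendrocyte precursor genes had 3 of 6 higher, and none passed on lane 4. Of 9 tested choroid plexus and ependymal genes and of 8 meningeal fibroblast genes 2 each were lower, near the background, and on lane 4 none of either passed. Of 8 tested endothelial genes 4 were lower, with sums of 284 to 434 CPM in transgene libraries and 378 to 537 CPM in controls. The part of these cell types in the members' values was not tested.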

How the data were processed

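Total RNA of mouse brain was sequenced in 17 libraries. The values deposited by the authors are raw counts for each transcript, with mm10 named in the submitters' processing notes. No source used here names the aligner, counter, strand setting or annotation. Of 68517 rows per file, 64505 named Ensembl transcripts, 4007 assembled loci and 5 no feature. These 5 stayed out of library sizes, and reads on several features made up 41.5% of all reads. Transcripts were matched by name to GENCODE M21 (64380 rows) and summed per gene. Tests used edgeR 4.0.16 in R 4.3.3 (quasi-likelihood, TMM, its default filter on low counts, prior count of 2 for log2 CPM), with SE from the F statistic and Benjamini-Hochberg adjustment at 0.05. Correlations used 100000 permutations. Scripts were tested on simulated counts. Replicates differed by more than sampling noise (chi-square per gene at least 8.76). The alternatives were limma 3.58.1, DESeq2 1.42.0, other scalings and filters, the best-counted row of each gene, lane and score terms, and libraries left out. Leaving out transgene libraries 2 and 6 was chosen after seeing the data. Full values are given for Slc7a10, Sox9 and members past a log2 change of 1, over all libraries or relative to the member mean. Companion genes were named from the 4 of each list that passed with the largest change, plus a fixed few such as Gfap, Slc1a2, Slc1a3 and Glul. The members, lists and rules were chosen with earlier results of these data known.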

Additional observations from a re-analysis of the deposited data

Results flagged for a closer look

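Gdf10 in transgene library 3 was set apart from the other transgene libraries, at 5.89 log2 CPM against 4.35 for the next highest. The gap made up 0.933 of the range of the 6 libraries, above Dixon's 95% critical value for that number of libraries. This library also had the highest cerebellar score of its group, at 5.58 against at most 3.04 in the others. The gap of Gdf10 was the only such case among the 33 members in the transgene libraries. Chance gives such a case in about 1 of 20 members screened, so a count of 1 among 33 is within what chance gives.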

How the results depend on the processing

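Over all libraries the number of lower members lay between 20 and 23 under the alternatives tried and was 21 with any 1 library left out, and the number of higher members was 2 or 3 with a library left out. It was 1 with the cerebellar score as a covariate. On lane 4, 16 to 23 members were lower under the alternatives and 19 to 22 with a library left out, and 2 were higher with any library left out but 1 at an adjusted p under 0.01 or without transgene libraries 2 and 6. Relative to the member mean, 11 to 14 were lower and 12 to 14 higher with a library left out, 7 were higher with a lane term in the fit, 5 higher with the cerebellar score, and 7 lower and 18 higher when libraries were scaled by the members' median. The number of members correlated with the cerebellar score at r beyond 0.8 was 4, and 1 without controls 7 and 11. Signs turned as follows, and the cause was not tested. Over all libraries, the cerebellar covariate gave Gdf10 0.91, Fabp7 -1.04, Gpc5 -0.39, Aldh1l1 0.13 and Sox9 0.021, the lane term gave Fabp7 -0.26 and Gpc5 -0.092, library size alone gave Fabp7 -0.036, and leaving out transgene libraries 2 and 6 gave Sox9 0.013. With 1 library left out, Fabp7 ranged from -0.12 (transgene library 5) to 0.27 (transgene library 3). On lane 4, Gpc5 was 0.17 without control 7 and transgene library 3, and with 1 library left out it ranged from -0.31 (control 8) to 0.14 (control 7) and Fabp7 from -0.67 (control 8) to 0.39 (control 11). Relative to the mean, the lane term gave Kcnj16 -0.16 and Slc6a11 -0.13. On that scale the cerebellar covariate gave Kcnj16 -0.24, Slc6a11 -0.74, Acsbg1 0.032, Lcat 0.48, Fabp7 -0.33 and Gdf10 1.65 (adjusted p = 0.0211), and the members' median gave Slc7a10 0.18, Aldoc 0.12 and Acsbg1 0.26. Under other settings 311 of 330 single-gene results over all libraries, 253 of 264 on lane 4 and 175 of 231 relative to the member mean kept direction and side of the threshold. No paired analysis was possible because the labels give no replicate numbers shared by the groups. Depth limited Mlc1, with 307 counts in all, and 10 members had under 5000. Among these were both higher members, Mfge8 with 592 counts over all libraries and Chrdl1 with 1099.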

Other observations

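Members also differed in how they varied within a group. Gdf10 differed 60.5-fold between the highest and lowest control and 3.15-fold between transgene libraries, whereas Agt differed 2.45-fold between controls and 12.7-fold between transgene libraries. Acsbg1, an acyl-CoA synthetase gene, was among the steadiest, with 1.30-fold between controls and 1.33-fold between transgene libraries. Cspg5, a brain proteoglycan gene outside the list, rose by 1.02 ± 0.16 on the log2 scale (edgeR adjusted p = 4.11e-05), and Pla2g7, a phospholipase gene, fell by 1.13 ± 0.11 (edgeR adjusted p = 3.18e-07).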
